A study of Homo sapiens with 4 samples.

Results

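Genes of protein folding in the endoplasmic reticulum (ER) and of the unfolded protein response were followed in NB4-R4 cells given the CHK1 inhibitor MK-8776. They are 42 genes listed for their roles as ER stress sensors, chaperones, disulfide isomerases or degradation factors, with earlier results of these data known. The arrays measured 40 of them under a single gene name, out of 17687 genes. HSP90B1 and PDIA5 were not analysed here, and the gene listed as VIMP was measured under its current symbol, SELENOS.

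NB4-R4 is a single subclone of NB4, a line from acute promyelocytic leukaemia, and is resistant to all-trans retinoic acid. One group of cultures received 4 µM MK-8776, which blocks the checkpoint kinase CHK1, and the other received its vehicle DMSO, both for 96 h. Each group has 2 arrays of RNA from live cells. Values are log2 expression from RMA, an array normalization, and are given in the order of the replicate numbers or as mean ± SD (n = 2 per group). A change is the MK-8776 mean minus the DMSO mean on that scale, with its standard error (SE) and its adjusted p from limma over all 17687 genes. The labels name biological replicates without saying what separated the cultures, so a p-value reflects the spread of these samples alone.

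Secreted and membrane proteins fold in the ER with the help of the HSP70 chaperone BiP, its J-domain partners, lectin chaperones that read sugar chains, and isomerases that form and shuffle disulfide bonds. Proteins that fail to fold are drawn back to the cytosol and degraded. When unfolded proteins gather, the sensors IRE1, PERK and ATF6 start the unfolded protein response, in which spliced XBP1 and cleaved ATF6 switch on chaperone and degradation genes, many of them through the ER stress element of the promoter. Promyelocytes make large amounts of granule enzymes in the ER.

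The ER stress element reads CCAAT, then 9 bases of any kind, then CCACG. It was searched on both strands in the 250 bases before each start site in RefSeq's promoter table (GRCh38.p14), which held windows for 37 of the 40 measured genes. It was found in 7 of the 37 (18.9%), against 20 of 14250 genes tested on the arrays that have a window (0.14%), so these genes hold 7 of those 20. Counted by window, 8 of 45 windows held it, against 26 of the 35116 windows in the table (0.074%). The genes were listed for known roles in a response that acts in part through this element. The high share therefore describes the list and is not a test. The sites are shown because they are what several of these genes have in common at the start of the gene. Each is printed on its gene's own strand, with the outer letters of the element in capitals and up to 12 bases on either side. Where CGTGG comes first the element lies in reverse complement.
HSPA5, chr9:125241379-125241421, minus strand: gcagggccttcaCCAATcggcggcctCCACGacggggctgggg
CANX, chr5:179698766-179698808, plus strand: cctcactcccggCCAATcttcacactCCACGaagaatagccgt
XBP1, chr22:28800591-28800633, minus strand: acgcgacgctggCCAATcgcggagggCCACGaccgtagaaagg
CRELD2, chr22:49918542-49918584, plus strand: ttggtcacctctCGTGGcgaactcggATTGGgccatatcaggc
CALR, chr19:12938372-12938414, plus strand: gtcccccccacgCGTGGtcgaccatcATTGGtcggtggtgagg
PDIA6, chr2:10812841-10812883, minus strand: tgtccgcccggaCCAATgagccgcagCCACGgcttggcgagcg
ERO1B, chr1:236282171-236282208, minus strand: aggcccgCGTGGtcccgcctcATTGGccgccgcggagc

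The element began 66 bases before the start site in HSPA5, 52 in XBP1, 86 in PDIA6 and 80 in CRELD2, and lay farther out in CALR (225) and ERO1B (243). In CANX the same site stands in the windows of 2 of its 4 start sites, 151 and 189 bases away. XBP1 and PDIA6 have 2 windows each, and their distance is from the start site of the window that holds the element. After MK-8776, 1 of the 7 genes, ERO1B, fell and 6 did not pass the test. Their changes ran from -1.155 in ERO1B to 0.15 in HSPA5, with 1 higher, 6 lower and a median of -0.205. The other 30 genes with a window had 19 higher and 11 lower, with a median of 0.27. No test between these sets was made. In HSPA5, CANX, XBP1 and CRELD2 the MK-8776 and DMSO arrays overlapped. The letters TGACGTG, part of a second stress element that XBP1 can bind, share no site with the first. They stood before HYOU1, DNAJC10 and TXNDC5, which is 3 of 37 genes (8.11%), against 2.44% of the tested genes with a window. A match describes the letters of these windows and does not show binding.

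**Figure D1:**
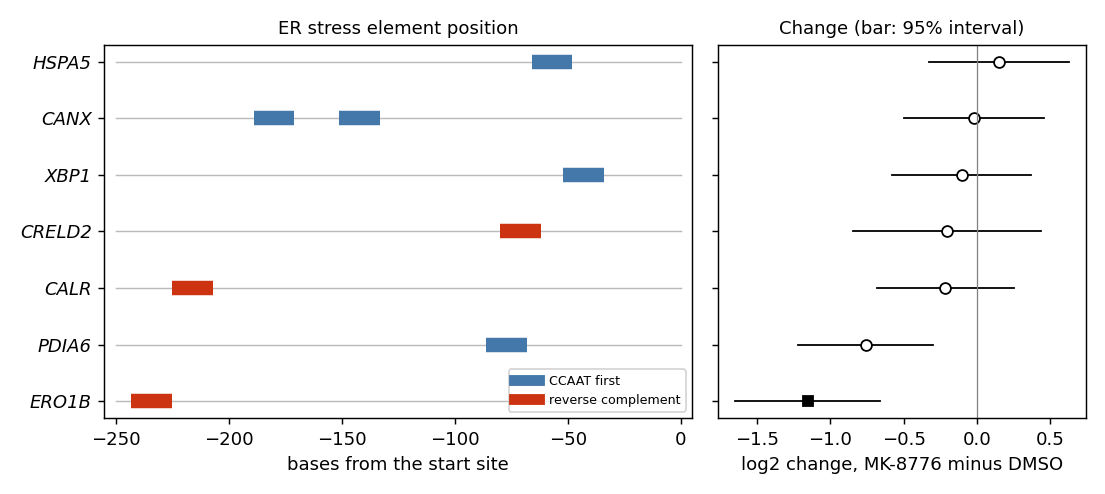
Position of the ER stress element in the 7 genes that hold it, in bases from the start site (left), and the log2 change of the same genes, MK-8776 minus DMSO, with its 95% interval from limma (right, filled square: adjusted p under 0.05). CANX is drawn for the 2 of its 4 start sites whose windows hold the element. The element begins 52 to 86 bases before the start in HSPA5, XBP1, CRELD2 and PDIA6, and ERO1B, with the element farthest out, is the gene that passed the test.

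Across the 40 genes, 1 fell, 0 rose and 39 did not pass at an adjusted p of 0.05. That is 2.5% of them, against 3.69% of all 17687 genes and 6.45% of the 9180 genes whose mean lies above the median of all values (5.77). In the rising direction the background was 1.66%, and in the falling direction 2.02%. The genes were mostly bright on the arrays, with 38 of 40 above that median. Changes ran both ways, from -1.155 to 0.74, with a signed median of 0.09, against 0.005 over all genes. The median absolute change was 0.34, against 0.245 over all genes and 0.315 over those above the median level. In 26 of the 40 (65%) the 95% interval of the change stayed within a 2-fold difference in both directions, against 74.1% of all genes and 65% of those above the median level. For the other 14 a larger change is within the interval.

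Below the adjusted threshold, 14 of 40 genes (35%) had an unadjusted p under 0.05, against 18.8% of all genes and 28.6% of the genes above the median level. Of these 14, 10 were higher, or 25% of the 40, against 8.61% of all genes and 12.4% of those above the median level. The other 4 were lower, or 10% of the 40, against 10.2% and 16.2%. The MK-8776 and DMSO arrays did not overlap in 25 of 40 (62.5%), against 48.2% of all genes and 59.1% of those above the median level. Of these 25, 15 were higher after MK-8776, or 37.5% of the 40, against 24% of all genes and 27.2% of those above the median level. The other 10 were lower, or 25% of the 40, against 24.2% and 31.9%. Beside genes above the median level the share of higher genes thus lay above the background and that of lower genes below it, and no test of this was made. The directions were uneven among the roles. The chaperones of the HSP70 and J-domain families had a median change of 0.39, the sensors 0.245, the degradation and translocon genes 0.16, the pair of lectin chaperones -0.12 and the disulfide isomerases and oxidases -0.36. These medians are descriptions of the lists, and no test between the roles was made.

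**Figure D2:**
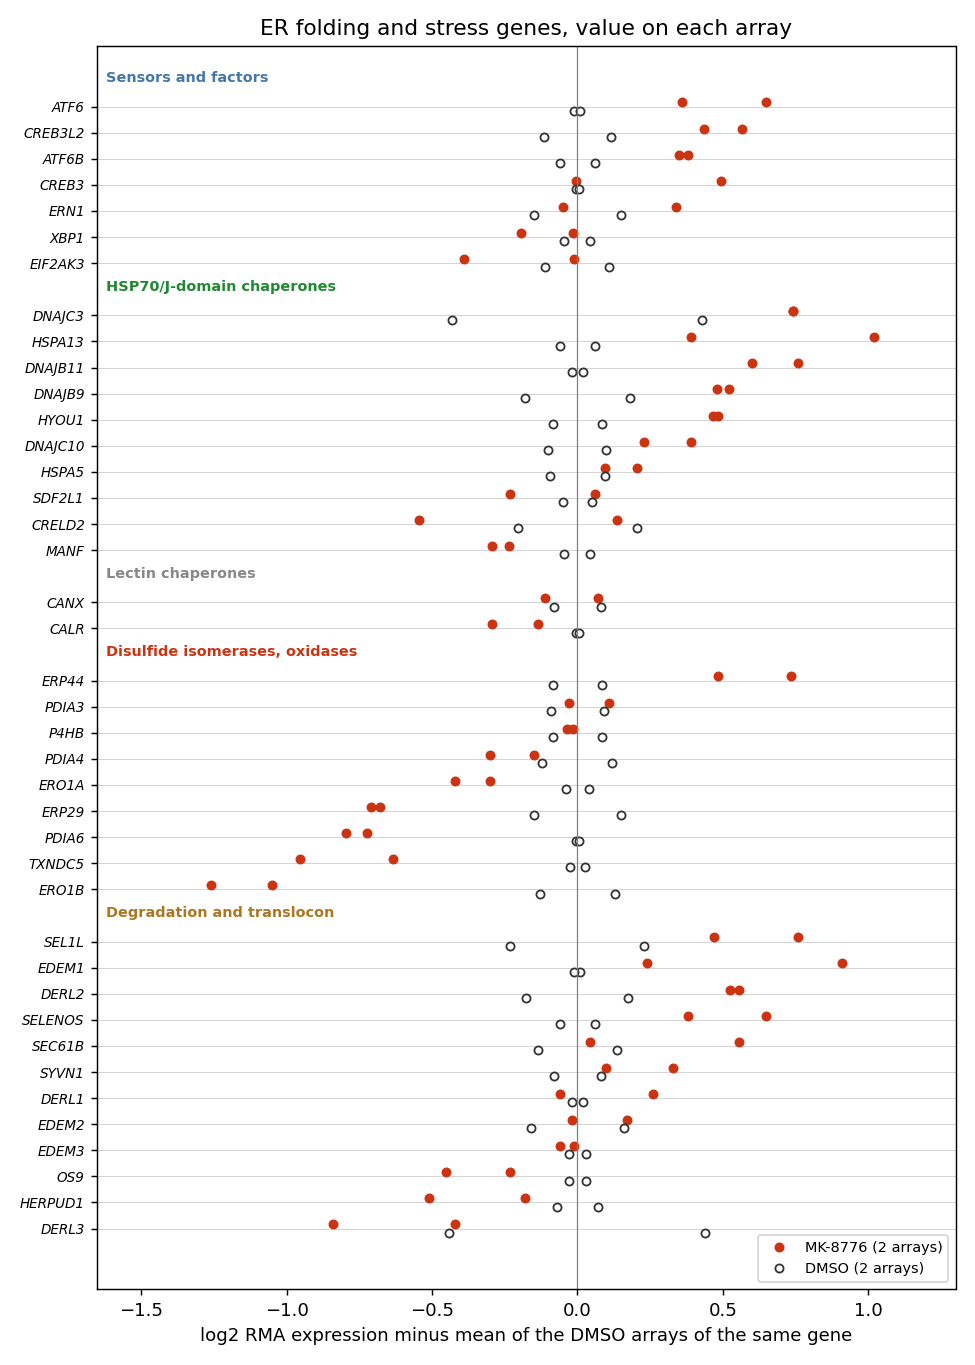
Log2 expression on each array minus the mean of the DMSO arrays of the same gene, for all 40 measured genes sorted by role and change (filled red: MK-8776, open: DMSO, 2 arrays each). Among the disulfide isomerases and oxidases 6 of 9 genes have both MK-8776 arrays below both DMSO arrays, and among the HSP70 and J-domain chaperones 6 of 10 have both above. Over all genes 24.2% lie below and 24% above in this way. Among genes above the median level 31.9% lie below and 27.2% above.

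The gene that passed was ERO1B, which encodes one of the ER oxidases that recharge the disulfide isomerases (feature TC0100017849.hg.1, chromosome 1, 236215101 to 236281958, GRCh38.p14). It measured 5.51 and 5.30 on the MK-8776 arrays, against 6.43 and 6.69 on the DMSO arrays. Both MK-8776 arrays lay below both DMSO arrays, by more than the arrays of a group differed. The change was -1.155 (SE 0.22, adjusted p = 0.0292, limma), a level 0.449 times that in DMSO. The feature is dim, with an MK-8776 mean below the median of all values, and the fall therefore rests on the lower part of the array's range. Its call was lost when any 1 of the 4 arrays was left out, in fits that called few or none of all genes. The change in these fits ran from -1.285 to -1.025. With a replicate block the call was lost too (adjusted p = 0.0713, limma).

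ERO1A, the other ER oxidase gene of the family, which is also known as a target of the hypoxia factor HIF1, measured 14.72 and 14.60 on the MK-8776 arrays and 15.06 and 14.98 on the DMSO arrays. It was lower without overlap, with a change of -0.36 (SE 0.20, adjusted p = 0.400, limma) that did not pass. Whether the pair of oxidases differed in their change was not tested.

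Of the 9 measured disulfide isomerases and oxidases 1 fell, 0 rose and 8 did not pass, with 7 lower and 2 higher. The call is 11.1% of the list, against 3.69% of all genes and 6.45% of those above the median level. PDIA6, an isomerase that works with BiP and also binds IRE1, measured 13.39 and 13.46 after MK-8776, against 14.18 and 14.19 after DMSO. The arrays of each group nearly coincided and the groups stood apart. Its change of -0.76 (SE 0.20, adjusted p = 0.0850, limma) missed the threshold. TXNDC5, an isomerase with several thioredoxin domains, measured 12.11 and 12.43 after MK-8776, against 13.04 and 13.09 after DMSO. Its change of -0.795 (SE 0.22, adjusted p = 0.0910, limma) also missed.

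With a variance trend, which lets the fit expect less spread in brighter genes, both of these passed, with an adjusted p of 0.00679 for PDIA6 and 0.0146 for TXNDC5 (limma). That setting called 4 of the 40 genes, against 6.7% of all genes. It called 1 of the 40 as risen, against a background of 3.09%, and 3 as fallen, against 3.61%. These backgrounds are over all genes. The share this setting called among genes above the median level, where 38 of the 40 lie, was not counted.

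ERP29, a relative of the isomerases without the active cysteines, measured 8.69 and 8.72 after MK-8776 and 9.25 and 9.55 after DMSO, lower on both arrays, with a change of -0.695 (SE 0.21, adjusted p = 0.126, limma). PDIA4 was at -0.225, with all MK-8776 values below the DMSO ones. P4HB, the founding isomerase of the family, and PDIA3, which works on glycoproteins with the lectin chaperones, were at -0.025 and 0.04, with overlapping arrays.

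ERP44 went against the direction of most of this list. It encodes a chaperone of the early secretory pathway that holds back the ERO1 oxidases and unassembled proteins. It measured 10.29 and 10.54 after MK-8776, against 9.72 and 9.89 after DMSO. Both MK-8776 arrays were the higher ones, with a change of 0.61 (SE 0.21, adjusted p = 0.169, limma) that did not pass.

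HSPA5, which encodes BiP and is the usual marker of the unfolded protein response, differed little. It measured 14.45 and 14.34 on the MK-8776 arrays and 14.34 and 14.15 on the DMSO arrays. One MK-8776 value equals one DMSO value, and the change of 0.15 (SE 0.21, adjusted p = 0.766, limma) has a 95% interval from -0.33 to 0.63. HYOU1, the large HSP70 relative that swaps the nucleotide of BiP, measured 14.34 and 14.36 after MK-8776 and 13.96 and 13.79 after DMSO. It was higher without overlap, at 0.475 (SE 0.21, adjusted p = 0.260, limma).

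The J-domain partners of BiP were higher in both MK-8776 arrays, though none of the 4 passed in the limma fit. DNAJB11, the partner that delivers nascent chains to BiP, measured 11.37 and 11.21 after MK-8776, against 10.59 and 10.63 after DMSO. Its change was 0.68 (SE 0.20, adjusted p = 0.119, limma), and it passed narrowly with a variance trend (0.0491) but not when that trend was fitted robustly. DNAJC3, which also restrains PERK, measured 10.72 on both MK-8776 arrays, against 10.41 and 9.55 on the DMSO arrays. The DMSO arrays of DNAJC3 lay far apart, which leaves its change of 0.74 with an SE of 0.29 (adjusted p = 0.219, limma).

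DNAJB9, a partner that helps BiP to hold IRE1 inactive, and DNAJC10, a reductase that opens disulfides before degradation, were at 0.50 and 0.31, without overlap. HSPA13, an HSP70 relative of the microsomes, measured 10.80 and 10.17 after MK-8776 and 9.72 and 9.84 after DMSO. Its change was 0.705 (SE 0.26, adjusted p = 0.183, limma), and the MK-8776 arrays differed from each other by nearly as much as the change.

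Other chaperone partners that are known to respond strongly to ER stress were not higher. MANF, a small secreted partner of BiP, measured 6.71 and 6.77 after MK-8776 and 7.05 and 6.96 after DMSO, lower on both arrays at -0.265 (adjusted p = 0.556, limma). CRELD2 and SDF2L1 were at -0.205 and -0.085 with overlapping arrays, and SDF2L1 lay below the median of all values in both groups. In all, 10 genes of this role were measured, 0 passed and 4 had an unadjusted p under 0.05, all of them higher. Those 4 are 40% of the role. In either direction the background was 18.8% of all genes and 28.6% of those above the median level. In the higher direction it was 8.61% and 12.4%. Neither of the 2 lectin chaperones passed in limma (0 at an unadjusted p under 0.05). CALR was at -0.215, lower without overlap, and CANX at -0.02.

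None of the 7 sensors and transcription factors passed in limma, and 2 had an unadjusted p under 0.05. That is 28.6%, against 18.8% of all genes and 28.6% of those above the median level, where all 7 lie. ATF6, the sensor that is cleaved in the Golgi to release a transcription factor, measured 11.60 and 11.31 after MK-8776, against 10.94 and 10.96 after DMSO. Both MK-8776 arrays were higher, at 0.505 (SE 0.21, adjusted p = 0.250, limma). Its relative ATF6B was at 0.365, also without overlap. CREB3L2, a factor of the same membrane-bound kind that serves secretory cells, measured 10.48 and 10.35 after MK-8776 and 9.80 and 10.03 after DMSO, at 0.50 (SE 0.21, adjusted p = 0.250, limma).

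CREB3, of the same family, was at 0.245, with 1 MK-8776 array above the DMSO arrays and the other, at 7.50, level with them. ERN1, which encodes IRE1, was at 0.145 and EIF2AK3, which encodes PERK, at -0.20, both with overlap. XBP1, whose mRNA is spliced by IRE1, measured 10.34 and 10.52 after MK-8776 and 10.58 and 10.49 after DMSO. The groups overlapped, with a change of -0.105 and a 95% interval from -0.58 to 0.37 (adjusted p = 0.846, limma). The array gives 1 value per gene, so splicing of XBP1, cleavage of ATF6 and the activity of IRE1 and PERK were not measured.

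Of the 12 degradation and translocon genes 0 passed in limma and 3 had an unadjusted p under 0.05, with 8 higher and 4 lower. Those 3 are 25% of the list, against 18.8% of all genes and 28.6% of those above the median level. Of the 12 genes, 11 lie above that level. SEL1L, the adaptor of the ubiquitin ligase HRD1, measured 12.85 and 12.56 after MK-8776, against 12.32 and 11.86 after DMSO. It was higher without overlap, at 0.615 (SE 0.24, adjusted p = 0.217, limma). SYVN1, which encodes HRD1 itself, was at 0.215.

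DERL2, one of the derlins of the export channel, measured 7.46 and 7.43 after MK-8776 and 7.08 and 6.73 after DMSO, at 0.54 (SE 0.22, adjusted p = 0.231, limma). SELENOS, a selenoprotein that ties the derlins to the ATPase VCP, measured 9.33 and 9.06 after MK-8776 and 8.74 and 8.62 after DMSO, at 0.515 (SE 0.21, adjusted p = 0.243, limma). Both genes were higher on each MK-8776 array. EDEM1, which marks misfolded glycoproteins by trimming mannose, was at 0.575, with an MK-8776 array at 10.84 and the other at 10.17, above DMSO values of 9.94 and 9.92.

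The rest of the list moved little or lay lower. EDEM2 and EDEM3 were at 0.075 and -0.035 and DERL1 at 0.10, all with overlap, and SEC61B, a subunit of the translocon, at 0.30. HERPUD1, which organises the degradation complex and is a common marker of ER stress, measured 11.46 and 11.79 after MK-8776 and 12.04 and 11.90 after DMSO. It was lower on both arrays, at -0.345 (SE 0.22, adjusted p = 0.465, limma). OS9, a lectin that brings glycoproteins to HRD1, was at -0.34 without overlap, and DERL3, a dim feature, at -0.63 with overlap.

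**Figure D3:**
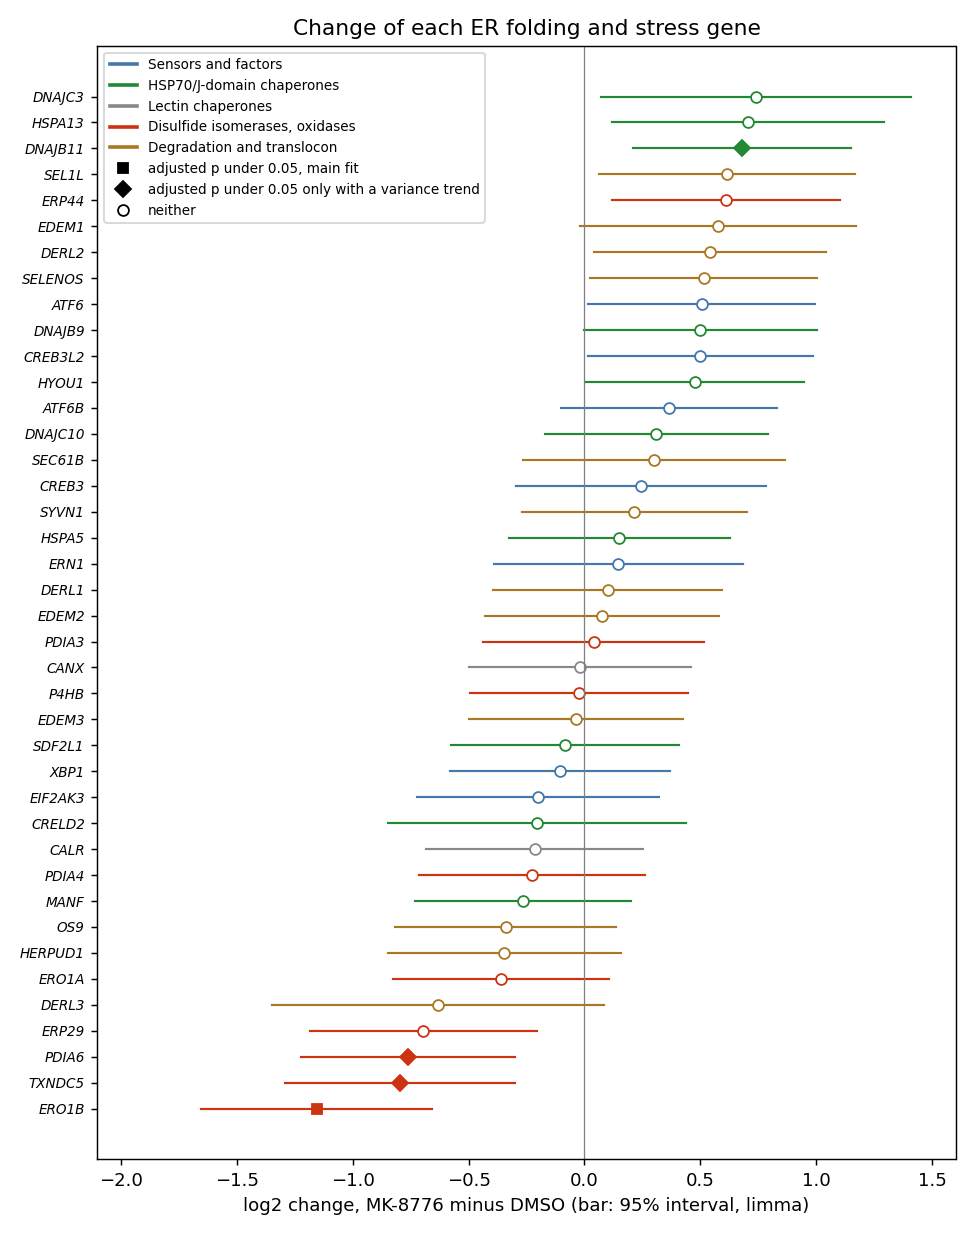
Log2 change of each of the 40 genes, MK-8776 minus DMSO, with its 95% interval from limma, coloured by role and sorted from highest to lowest. ERO1B (square) passed at an adjusted p of 0.05, and PDIA6, TXNDC5 and DNAJB11 (diamonds) passed once a variance trend was fitted; 26 of the 40 intervals stay between -1 and 1.

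Further genes of the ER were taken from 8 lists that hold none of the 40. Of 142 genes measured, 2 rose, 2 fell and 138 did not pass, which is 2.82%, against 3.69% of all genes and 6.45% of those above the median level, where 124 of the 142 lie. An unadjusted p under 0.05 was reached by 35 (24.6%), against 18.8% and 28.6%. The median change was 0.015. FKBP2, a prolyl isomerase of the ER, measured 8.11 and 7.95 after MK-8776, against 9.33 and 9.24 after DMSO, and fell, with a change of -1.255 (SE 0.21, adjusted p = 0.0189, limma). It was the single call among 30 further folding and redox genes (3.33%, near the share of all genes).

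LMAN1, the lectin that carries glycoproteins out of the ER, measured 12.49 and 12.72 after MK-8776, against 13.61 and 14.04 after DMSO, and fell, with a change of -1.22 (SE 0.23, adjusted p = 0.0310, limma). KRTCAP2, a subunit of the enzyme that attaches N-glycans, rose by 1.075 (SE 0.21, adjusted p = 0.0332, limma). These were 2 calls among 19 genes of N-glycan transfer and the glycoprotein folding cycle, which had 13 lower and 6 higher.

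UFD1, which helps VCP to pull proteins out of the ER, measured 11.06 and 10.87 after MK-8776, against 9.83 and 10.03 after DMSO, and rose by 1.035 (SE 0.21, adjusted p = 0.0378, limma). It was the single call among 21 further degradation genes (4.76%, against 3.69% of all genes and 6.45% of those above the median level). The calls of FKBP2, LMAN1, KRTCAP2 and UFD1 were all lost when any 1 of the 4 arrays was left out. Those fits called few or none of all genes, and each change kept its direction in them. With a replicate block FKBP2 kept its call narrowly (0.0497), and LMAN1 (0.0549), KRTCAP2 (0.0730) and UFD1 (0.0789) lost theirs.

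Downstream of PERK 0 of 8 genes passed in limma, and 7 were higher. An unadjusted p under 0.05 was reached by 3 (37.5%), against 18.8% of all genes and 28.6% of those above the median level. Of the 8 genes, 7 lie above that level. ATF4, the central factor of the branch, measured 14.27 and 14.29 after MK-8776 and 14.30 and 14.27 after DMSO, a change of -0.005 with a 95% interval from -0.47 to 0.46. ATF3 and CHAC1, targets of the branch, were at 0.22 and 0.28 with overlapping arrays, and DDIT3, which encodes CHOP, at 0.71 without overlap (adjusted p = 0.245, limma). TRIB3, a pseudokinase gene induced by ATF4 and CHOP, measured 12.51 and 12.28 after MK-8776, against 11.54 and 10.69 after DMSO, at 1.28 (SE 0.29, adjusted p = 0.0556, limma). PPP1R15A, whose product directs the removal of the phosphate that PERK places on eIF2α, measured 11.05 and 11.02 after MK-8776, against 10.27 and 9.69 after DMSO, at 1.055 (SE 0.25, adjusted p = 0.0585, limma). Both missed the threshold narrowly and passed with a variance trend, at 0.00958 and 0.0159. Other kinases than PERK feed the same branch, and whether PERK or any of them was active was not measured.

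The other lists had 0 calls in limma. Their counts at an unadjusted p stand beside the 18.8% of all genes and the 28.6% of those above the median level. Above that level lie all 21 translocon genes, 8 of 13 regulators, 22 of 23 exit genes and 6 of 7 ER-phagy receptors. Among 21 genes of the translocon, the signal recognition particle and signal peptidase, 6 (28.6%) had an unadjusted p under 0.05, with the recognition particle gene SRP19 at 1.255 and SEC62, a translocon partner that is also an ER-phagy receptor, at 0.805. Among 13 regulators of the sensors 2 (15.4%) did, with NFYA, a subunit of the factor that binds CCAAT, at -0.87 and WFS1, which encodes the ER membrane protein wolframin, at 0.735. The other subunit genes of the CCAAT factor, NFYB and NFYC, were higher, at 0.335 and 0.355. Among 23 genes of ER exit and retrieval 3 (13%) had an unadjusted p under 0.05, with KDELR3, a receptor that returns escaped ER proteins, at -0.965 and ERGIC1 at -0.93. Among 7 ER-phagy receptors 3 (42.9%) did, with RETREG1 at 0.775 and RETREG2 at 0.745.

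**Figure D4:**
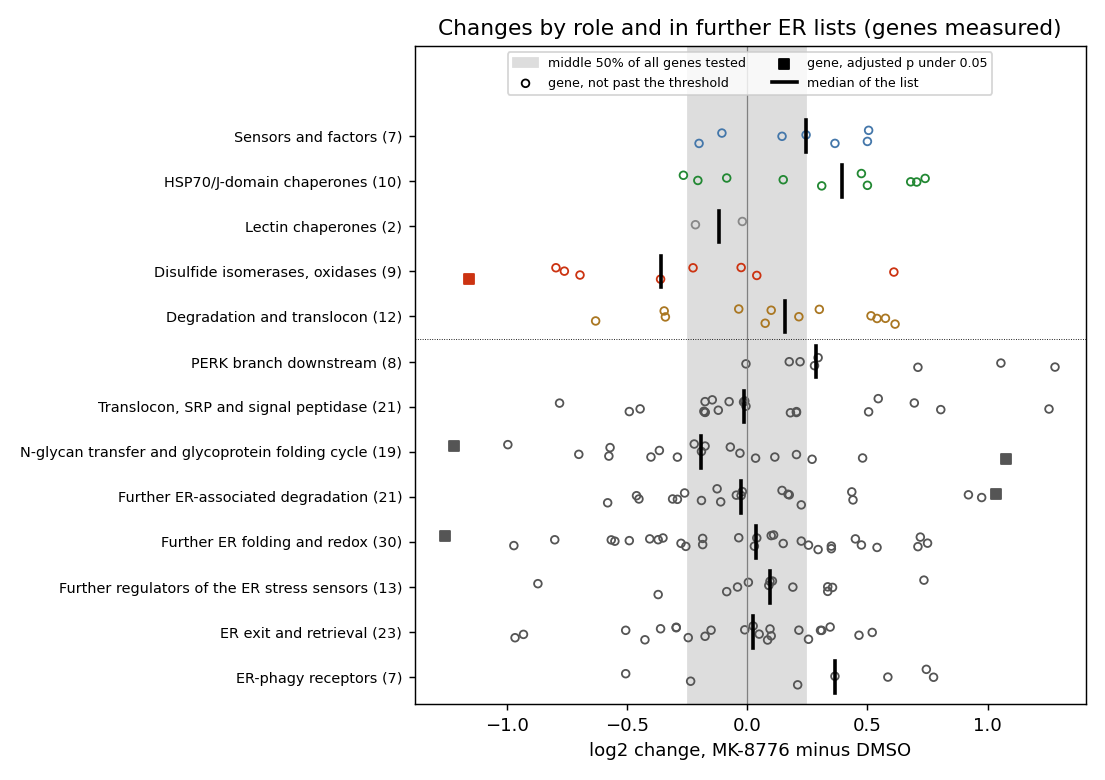
Log2 change, MK-8776 minus DMSO, of the 40 genes by role (above the dotted line) and of 8 further ER lists (below it), with the number of genes measured in brackets. Circles are genes that did not pass, squares genes with an adjusted p under 0.05, black bars list medians, and the grey band the middle 50% of all genes; ERO1B, LMAN1, KRTCAP2, UFD1 and FKBP2 are the squares.

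As a check of the cell type, the promyelocyte markers MPO and MYB averaged 15.09 ± 0.39 and 14.05 ± 0.50 in MK-8776, and 16.18 ± 0.13 and 14.93 ± 0.18 in DMSO (SD, n = 2 each). Of 8 such markers measured 2 fell, the granule protease genes CTSG and PRTN3, and all 8 were lower after MK-8776, with a median change of -0.99 and a median level of 6.10 in MK-8776 and 7.72 in DMSO. The calls are 25% of the 8, against 3.69% of all genes and 6.45% of those above the median level. The part of these markers in the changes of the ER genes was not tested. Markers of B and plasma cells, the cells with the best known secretory programme, had 0 calls of 9 in limma (2 at an unadjusted p under 0.05), with a median level of 4.83 in MK-8776 and 4.84 in DMSO, though CD79A and CD79B were bright (9.61 ± 0.20 and 9.92 ± 0.13 in MK-8776, 9.69 ± 0.06 and 10.49 ± 0.05 in DMSO). Of 8 T and NK cell markers TRAT1 rose and CD3E fell, and of 6 erythroid and megakaryocyte markers ITGA2B fell, with median levels between 4.34 and 4.85 in MK-8776 and between 4.37 and 4.40 in DMSO. These calls are 25% and 16.7% of their lists, against the same 3.69% of all genes. CTSG, PRTN3 and TRAT1 are named after their values were seen. Bulk RNA of a line cannot tell fewer cells of a kind from less RNA per cell.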

How the data were processed

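RNA of 4 cultures was measured on Affymetrix arrays. The deposited values are log2 expression, 1 per feature and array, made by the authors with RMA and genome build hg38, per the submitters' processing notes. The log2 scale was taken from the values (2.16 to 18.54). The version of RMA is not given in the sources used here, and under a variant of it the changes could differ in size. RMA makes arrays alike in distribution, so changes are relative to other genes. The number of arrays limits the precision.

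Of 21448 features, 17709 have 1 gene symbol, 0 several and 3739 none. The brightest feature was kept for 20 genes with several, none of them among the 40 genes described. Values were tested with limma 3.58.1 in R 4.3.3 (lmFit, eBayes, two-sided, Benjamini-Hochberg over 17687 genes, threshold 0.05, no filter). The fit has 2 residual and 6.30 prior degrees of freedom. An exact permutation test cannot go below p = 0.333 here. Promoter letters were searched with Python 3.11.15.

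The genes and lists were chosen with earlier results of these data known. Named are all 40 genes, up to 4 called genes of each further list (or the 2 with the largest change), and the brightest 2 markers of the lists shown for the cell type. ATF4, ATF3, CHAC1, DDIT3, NFYB and NFYC were added after their values were seen. Alternatives were quantile normalization, median centring, genes above the median level, a variance trend (plain and robust), a replicate block, all features, and each array left out. Replicate numbers are tied to no shared culture. Retrieval signals at the protein ends were planned and not analysed here.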

Additional observations from a re-analysis of the deposited data

How the results depend on the processing

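The limma fit called 652 of all genes, 1185 with a variance trend, 1162 with a robust trend, 309 with a replicate block, and 0 to 34 without 1 array (0 without either DMSO array, with 1815 to 3017 genes at an unadjusted p under 0.05 over the 4 fits). Of the 40 ER genes it called 1, but 4 with a variance trend (1 rose, 3 fell), 3 with a robust trend (3 fell), 2 among genes above the median level (2 fell), 0 with a replicate block and 0 to 0 without 1 array, where 5 to 10 had an unadjusted p under 0.05. Of the 142 further genes it called 4, but 8 after median centring, 14 among genes above the median level, 17 with a variance trend, 17 with a robust trend, 1 with a replicate block and 0 to 0 without 1 array. Fitted to the 9180 genes above the median level, limma called 942 of them (10.3%). That is the background for the 2 called of 38 ER genes and the 14 of 124 further genes tested there. Over all genes the share called was 3.88% after median centring, 6.7% with a variance trend, 6.57% with a robust trend and 1.75% with a replicate block. The median change of the 40 genes ran from 0.05 to 0.14 over the 11 alternatives. Of 438 results for single genes, 427 kept their side of the threshold. The other 11 belong to ERO1B, PDIA6, TXNDC5 and DNAJB11, and PDIA6 also passed among genes above the median level (0.0449). Leaving out an array leaves 1 residual degree of freedom, and the lone array is assumed to vary like the other group. Why a trend raised the calls was not tested. The deviations of same-numbered arrays correlated at 0.139 across genes. No gene of the 40 had a second named feature to try.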

Other observations

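Outside the 40 genes, the exact ER stress element stood before 13 other tested genes, named here by their sequence and outside the rule for named genes. None of the 13 passed in the limma fit, with 3 higher, 10 lower and a median change of -0.37. The highest was SYNPO, at 0.62 without overlap (adjusted p = 0.220, limma). SERP1, whose product stabilises new membrane proteins at the translocon, averaged 9.78 in MK-8776 and 10.15 in DMSO (adjusted p = 0.396). FICD, whose product modifies BiP, averaged 5.265 in MK-8776 and 5.455 in DMSO (adjusted p = 0.709). ALG12, a mannosyltransferase gene of N-glycan assembly, averaged 7.42 in MK-8776 and 7.745 in DMSO (adjusted p = 0.568, all limma). The site printed for CRELD2 lies between CRELD2 and its neighbour ALG12, so both genes may share it. SERP1 likewise lies beside EIF2A, another of the 13. The 13 genes therefore need not hold 13 separate sites. FRG2, FRG2B and FRG2C are near-identical copies, so their signals, at -1.38, -1.11 and -0.83, are not separate, and they count as 3 of the 13. GLRA2 and NLRP4, with means of 2.92 and 2.705 in MK-8776 and 2.885 and 2.70 in DMSO, lie near the bottom of the array's range.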
